A study of Mus musculus with 11 samples.

Results

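The ISG15 conjugation pathway was followed here through 6 genes: Isg15, Uba7, Ube2l6, Herc6, Trim25 and Usp18. They were taken by symbol from the mouse annotation, with earlier results of these data known. They are 6 of the 52636 genes in the tables, and all 6 passed the filter on low counts. RNA was sequenced from fetal livers at E15.5 without any treatment, 1 library for each liver: 3 from WT embryos, 2 from Tnfr1 KO, 3 from Casp8 Mlkl dKO and 3 from Casp8 Tnfr1 dKO embryos. Tnfr1 KO lacks tumour necrosis factor receptor 1. Casp8 Mlkl dKO lacks caspase-8, the protease that holds necroptosis in check, together with MLKL, the pseudokinase that executes it. Casp8 Tnfr1 dKO lacks caspase-8 and TNFR1 but keeps MLKL, whereas Casp8 Mlkl dKO keeps TNFR1. All lines were kept on a C57BL/6 N background and the deletions were present in every cell of the embryo, so each difference is one between whole livers of whole mutant embryos. Expression is given in CPM, the count of a gene scaled to a common library size by TMM factors, and positions of genes are those of GENCODE M21 on GRCm38. A gene was called where the adjusted p of edgeR's quasi-likelihood test was under 0.05.

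ISG15 is a small protein made of a pair of ubiquitin-like folds that cells attach to other proteins, as they do ubiquitin, through an E1, an E2 and an E3 enzyme in turn. Interferon switches on the gene for the modifier and those for its enzymes, mainly through a transcription factor complex that binds a DNA element called the ISRE. Usp18 removes ISG15 from its targets, and it also binds the interferon receptor subunit IFNAR2 and dampens its signal. ISG15 is best known for its part in defence against viruses, and free ISG15 is also secreted and acts on lymphocytes through the integrin LFA-1.

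The promoters are shown first because several of the genes moved together. RefSeq (GRCm38.p6) gave a window of 250 bases before to 50 bases after the start for 5 members. Promoter windows and distances are counted from the RefSeq start, which can differ from the GENCODE start given for a gene below. Windows were searched on both strands for the ISRE core (GAAA, any 2 bases, GAAA), for the shorter interferon regulatory factor (IRF) motif, which is the end of that core (AA, any 2 bases, GAAA), and for the interferon-gamma activated (GAS) motif (TTC, any 3 bases, GAA). The ISRE core occurred in 3.44% of all 32851 windows, the IRF motif in 23.92% and GAS in 8.3%. Of the 5 member windows, 1 held the ISRE core, 3 held the IRF motif and 0 held GAS. In the sequences that follow, 5′ to 3′ on the strand of the gene, capitals mark bases in an ISRE or IRF match. The first 3 are the 150 bases that end just before the start of the gene, at chr4:156200819-156200968 (minus strand) for Isg15, chr2:84798678-84798827 (plus) for Ube2l6 and chr6:57580842-57580991 (plus) for Herc6. The last 2 are the 30 bases around the match, at chr9:107975529-107975558 (plus) for Uba7 and chr11:88999386-88999415 (plus) for Trim25.
Isg15: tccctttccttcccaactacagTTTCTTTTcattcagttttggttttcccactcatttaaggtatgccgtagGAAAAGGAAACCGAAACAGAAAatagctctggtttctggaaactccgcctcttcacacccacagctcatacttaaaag
Ube2l6: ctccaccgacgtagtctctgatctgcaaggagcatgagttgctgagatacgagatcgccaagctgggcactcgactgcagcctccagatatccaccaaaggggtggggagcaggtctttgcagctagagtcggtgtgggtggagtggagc
Herc6: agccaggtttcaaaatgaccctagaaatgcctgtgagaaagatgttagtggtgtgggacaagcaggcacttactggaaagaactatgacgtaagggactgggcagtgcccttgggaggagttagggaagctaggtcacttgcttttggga
Uba7: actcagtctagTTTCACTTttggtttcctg
Trim25: ccctcctgttcagTTTCGATTccttcctcg
The Isg15 window held 3 overlapping ISRE cores, the first of which began 78 bases upstream of the start and the last of which ended 57 bases upstream. The Uba7 match lay 27 to 20 bases upstream of the RefSeq start, and the Trim25 match began 4 bases upstream and ran across that start. Both matches, at chr9:107975540-107975547 and chr11:88999399-88999406, lie downstream of the GENCODE starts of these genes (107975505 and 88999376). Neither the Ube2l6 nor the Herc6 window held an ISRE or IRF match, which says only that these letters were not in this window.

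Some facts about the libraries bear on every value below. Library totals lay between 23129212 and 35819339 counts. Livers held hepatocyte transcripts at high levels in all genotypes, with Alb between 22881 and 124635 CPM. Casp8 averaged 30.6 CPM in WT, 32.2 in Tnfr1 KO and 9.08 in Casp8 Mlkl dKO livers and lay between 11.5 and 21.9 CPM in Casp8 Tnfr1 dKO livers, and Mlkl averaged 4.32 CPM in WT and 0.994 in Casp8 Mlkl dKO. Tnfrsf1a, which encodes TNFR1, was not lower in Tnfr1 KO (50.2 CPM) than in WT (51.1) and lay between 76.0 and 425 CPM in Casp8 Tnfr1 dKO livers, so its count does not check the Tnfr1 deletion in either genotype. Casp8 Tnfr1 dKO replicate 3 stood apart. Its correlation with the other libraries was 0.840 to 0.891, against at least 0.949 among the other 10, and its summed level of 9 striated muscle markers was 1682 CPM, against 14.7 to 35.2 CPM elsewhere. It was also the only liver with Xist, the transcript of the inactive X chromosome of females, at 3409 CPM against at most 0.570 CPM in the others. Casp8 Mlkl dKO replicate 1 had a hepatocyte marker sum of 201500 CPM, against 49760 to 94050 CPM in the other livers. Results that rest on either liver are given with and without it.

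Isg15 (ENSMUSG00000035692, chr4:156199424-156200818, minus strand), the modifier itself, was low in livers with an intact Casp8 gene. It measured 3.11, 4.99 and 3.08 CPM in the 3 WT livers and 2.87 and 3.61 CPM in the 2 Tnfr1 KO livers. It measured 38.2, 9.09 and 15.1 CPM in the Casp8 Mlkl dKO livers, and 265, 270 and 570 CPM in the Casp8 Tnfr1 dKO livers. WT and Tnfr1 KO overlapped, every Casp8 Mlkl dKO liver lay above both, and every Casp8 Tnfr1 dKO liver lay far above all others. The log2 fold change of Casp8 Tnfr1 dKO was 6.63 ± 0.63 (SE) against WT, a 98.9-fold difference (edgeR adjusted p = 3.88e-04). It was 6.83 against Tnfr1 KO (adjusted p = 0.00198) and 4.15 against Casp8 Mlkl dKO (adjusted p = 0.00596). Without Casp8 Tnfr1 dKO replicate 3, the log2 fold change against WT was 6.18 (adjusted p = 2.76e-04). Between whole livers, more RNA per cell and more of the cells that make it cannot be told apart.

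**Figure D1:**
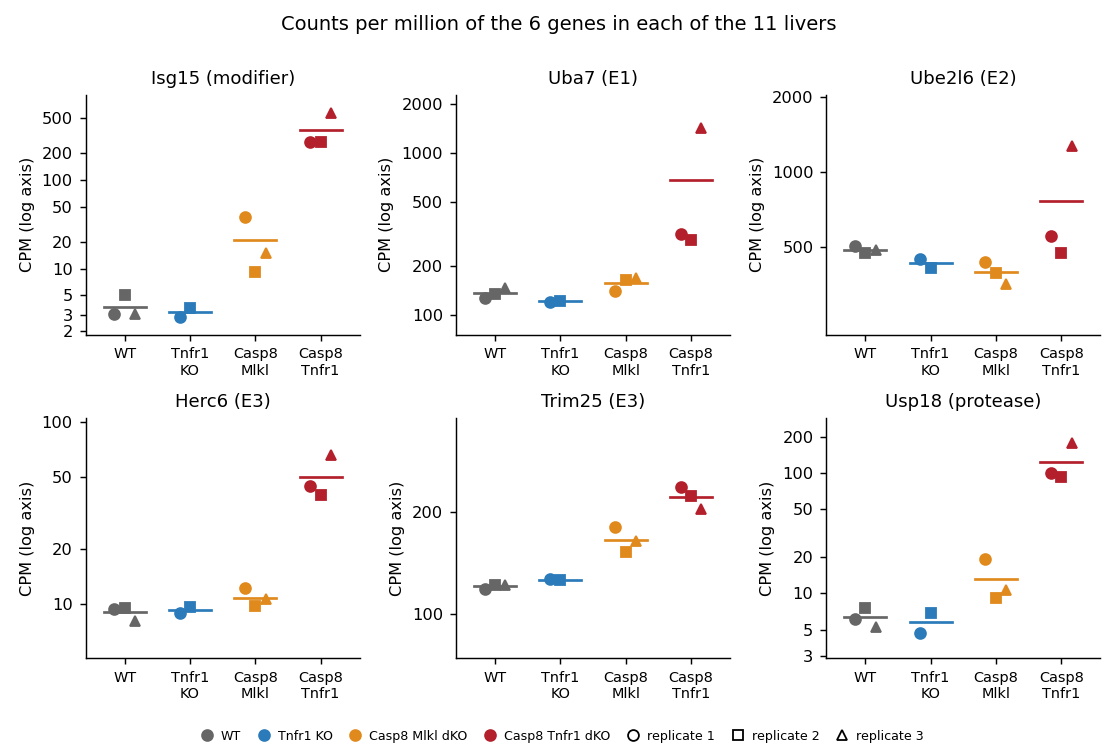
CPM of each gene (log axis) in each of the 11 livers, by genotype; the symbol shape gives the replicate number and the line the mean of the genotype. In all panels but that of Ube2l6, the 3 Casp8 Tnfr1 dKO livers lie above the other 8 livers, and replicate 3 is highest for 5 of the 6 genes.

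Uba7 (ENSMUSG00000032596, chr9:107975505-107984060, plus strand), the E1 enzyme that activates ISG15, rose less than the modifier and chiefly in 1 liver. It measured 127, 135 and 147 CPM in WT, 121 and 123 in Tnfr1 KO, and 141, 165 and 169 in Casp8 Mlkl dKO livers. The Casp8 Tnfr1 dKO livers measured 315, 291 and 1421 CPM, all above the other 8, with replicate 3 over 4 times as high as the other 2 of its genotype. The log2 fold change against WT was 2.31 ± 0.53 (SE, adjusted p = 0.0346). This call was lost when only the pair of genotypes was fitted (adjusted p = 0.1435), with the replicate number as a block (adjusted p = 0.0614) and when any 1 of 7 livers was left out, which were those of WT and Tnfr1 KO and Casp8 Mlkl dKO replicates 2 and 3 (highest adjusted p = 0.136). Against Tnfr1 KO it was 2.47 (adjusted p = 0.0855) and against Casp8 Mlkl dKO 2.09 (adjusted p = 0.0935), neither of which passed the test. When replicate 3 was left out the difference was smaller and passed the test in all 3 comparisons, at 1.16 against WT (adjusted p = 2.85e-04), 1.31 against Tnfr1 KO (adjusted p = 4.33e-04) and 0.94 against Casp8 Mlkl dKO (adjusted p = 0.00183).

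Ube2l6 (ENSMUSG00000027078, chr2:84798828-84810335, plus strand), the E2 enzyme that carries ISG15 from Uba7 to the E3, did not pass the test in any comparison. It measured 504, 471 and 488 CPM in WT and 449 and 411 in Tnfr1 KO livers. It measured 435, 394 and 356 CPM in Casp8 Mlkl dKO and 551, 474 and 1270 in Casp8 Tnfr1 dKO livers. Casp8 Tnfr1 dKO replicate 2 lay within the range of WT, replicate 1 a little above it and replicate 3 well above it. The log2 fold change against WT was 0.65 (95% interval -0.07 to 1.37, adjusted p = 0.239), and it was 0.08 without replicate 3 (adjusted p = 0.748). Against Tnfr1 KO and Casp8 Mlkl dKO the values were 0.83 and 0.95 (adjusted p = 0.3 and 0.208).

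Herc6 (ENSMUSG00000029798, chr6:57581000-57664632, plus strand), the main ISG15 E3 ligase of mice, which lack the HERC5 gene of humans, rose to a like extent against each genotype. It measured 9.41, 9.56 and 8.09 CPM in WT, 8.97 and 9.65 in Tnfr1 KO and 12.2, 9.73 and 10.7 in Casp8 Mlkl dKO livers. In Casp8 Tnfr1 dKO livers it measured 44.5, 39.7 and 65.4 CPM, with no overlap with any other liver. The log2 fold change was 2.47 ± 0.21 (SE) against WT (adjusted p = 2.00e-04), 2.42 against Tnfr1 KO (adjusted p = 9.78e-04) and 2.20 against Casp8 Mlkl dKO (adjusted p = 8.96e-04). Its exons shared 12.5% of their 50-base stretches with other genes, mainly an overlapping transcript on the same strand, the highest such share among the 6 genes.

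Trim25 (ENSMUSG00000000275, chr11:88999376-89020293, plus strand), a RING E3 ligase for ubiquitin and ISG15 and an activator of the RNA sensor RIG-I, rose by a small amount with little spread. It measured 119, 122 and 122 CPM in WT and 127 and 126 in Tnfr1 KO livers. It measured 180, 153 and 164 CPM in Casp8 Mlkl dKO and 236, 223 and 203 in Casp8 Tnfr1 dKO livers. The genotypes formed 4 ranges with no overlap, rising from WT through Tnfr1 KO and Casp8 Mlkl dKO to Casp8 Tnfr1 dKO, and replicate 3 was here the lowest of its genotype. The log2 fold change of Casp8 Tnfr1 dKO was 0.87 ± 0.12 (SE) against WT (adjusted p = 0.00333) and 0.81 against Tnfr1 KO (adjusted p = 0.0164). The call against Tnfr1 KO was lost without Tnfr1 KO replicate 1 (adjusted p = 0.327) or 2 (adjusted p = 0.339), when only the pair of genotypes was fitted (adjusted p = 0.1998), with no filter on low counts (adjusted p = 0.0626) and with the replicate number as a block (adjusted p = 0.0533). Against Casp8 Mlkl dKO it was 0.41 and did not pass the test (adjusted p = 0.139), and without replicate 3 it was 0.47 and passed it (adjusted p = 0.0248).

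Usp18 (ENSMUSG00000030107, chr6:121245906-121270917, plus strand), the protease that takes ISG15 off its targets, followed Isg15 most closely. It measured 6.15, 7.63 and 5.25 CPM in WT and 4.65 and 6.91 in Tnfr1 KO livers. It measured 19.4, 9.21 and 10.7 CPM in Casp8 Mlkl dKO and 99.5, 93.5 and 179 in Casp8 Tnfr1 dKO livers. WT and Tnfr1 KO overlapped, and neither group of dKO livers overlapped any other genotype. The log2 fold change of Casp8 Tnfr1 dKO was 4.29 ± 0.39 (SE) against WT, or 19.5-fold (adjusted p = 2.94e-04), 4.42 against Tnfr1 KO (adjusted p = 0.00127) and 3.24 against Casp8 Mlkl dKO (adjusted p = 0.00247). Usp18 lies 4.1 Mb from Tnfrsf1a on chromosome 6, and Tnfr1 KO livers, which carry the same targeted allele, measured within or just below the WT range.

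**Figure D2:**
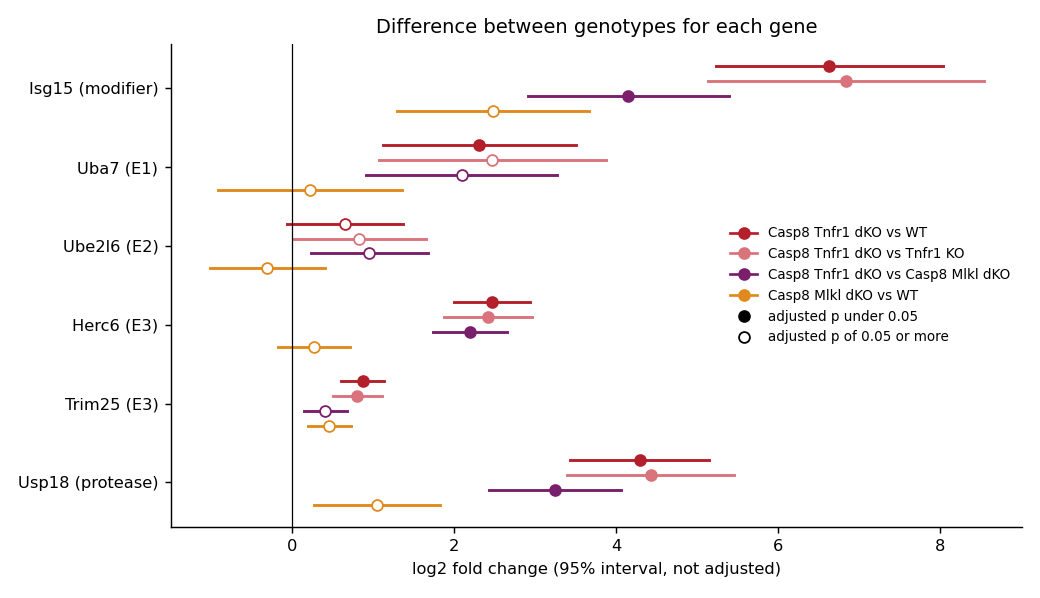
Log2 fold change (points) with its 95% interval (lines, not adjusted for many genes) from edgeR's quasi-likelihood fit, for 4 comparisons of genotypes; filled points passed an adjusted p of 0.05. Isg15 and Usp18 lie farthest to the right, and no point of Casp8 Mlkl dKO against WT is filled.

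Set together, 5 of the 6 genes were called higher in Casp8 Tnfr1 dKO than in WT livers, where 5.1% of the 17243 genes tested were called higher. The choice of genes was not blind to these data, and the authors had already reported Isg15 as elevated in the Casp8 Tnfr1 dKO livers. Against Tnfr1 KO it was 4 of 6 (Isg15, Herc6, Trim25 and Usp18, background 2.05%), and against Casp8 Mlkl dKO 3 of 6 (Isg15, Herc6 and Usp18, background 1.54%). These comparisons share the Casp8 Tnfr1 dKO livers. The median log2 fold change of the 6 genes was 2.39, 2.44 and 2.15 in this order, and that of all genes tested was 0.00, -0.01 and -0.03. In 5 of the 6 genes, all but Ube2l6, every Casp8 Tnfr1 dKO liver lay above all 8 other livers, as did 7.43% of all genes. When a fit held no other genotypes than the pair compared, the count of called genes was 1 against Tnfr1 KO and 0 against Casp8 Mlkl dKO, where the adjusted p was 0.102 for Isg15, 0.0581 for Herc6 and 0.0642 for Usp18. Leaving out Tnfr1 KO replicate 1 or 2 gave 1 and 2 called genes against Tnfr1 KO.

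Loss of caspase-8 is shared by both dKO genotypes. The comparison of Casp8 Mlkl dKO with WT shows what was seen where MLKL was lost as well and TNFR1 was kept. The dKO genotypes differ in both MLKL and TNFR1, so the parts of these losses in a difference between them cannot be told apart. None of the 6 genes passed edgeR's test, where 0.0058% of all genes were called higher. At an unadjusted p under 0.05 there were 3, Isg15 with a log2 fold change of 2.48 (edgeR adjusted p = 0.385), Trim25 with 0.46 (adjusted p = 0.68) and Usp18 with 1.05 (adjusted p = 0.875), beside 5.63% of all genes. In 4 of the 6, Isg15, Herc6, Trim25 and Usp18, every Casp8 Mlkl dKO liver lay above all 5 WT and Tnfr1 KO livers, as did 5.61% of all genes. Replicate 1 was the highest of its genotype in each of these 4. DESeq2 called Isg15 and Trim25 (adjusted p = 0.00119 and 0.00231), where it called 90 genes in all. Limma-voom called 0 of the 6. With a quality weight for each library it called 4 of them, where it called 1042 genes in all. Casp8 Mlkl dKO replicate 1 and Casp8 Tnfr1 dKO replicate 3 were also left out together, after the data were seen. In that fit 5 of the 6 genes were called, and 1086 genes in all. Isg15 (1.69), Usp18 (0.65), Trim25 (0.40) and Uba7 (0.30) were higher and Ube2l6 (-0.38) lower. Against Tnfr1 KO the log2 fold changes of Casp8 Mlkl dKO were 2.68 for Isg15, 1.18 for Usp18 and 0.39 for Trim25, and 0 of the 6 genes were called (background 0.0058%) with 3 at an unadjusted p under 0.05.

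No difference between Tnfr1 KO and WT livers passed the test. None of the 6 was called by edgeR, DESeq2 or limma-voom with or without quality weights, 0 had an unadjusted p under 0.05, and 0% of all genes were called by edgeR. The log2 fold changes lay between -0.20 for Isg15 and 0.06 for Trim25. With 2 Tnfr1 KO livers the intervals were wide, from -1.51 to 1.11 for Isg15 and from -0.23 to 0.36 for Trim25.

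The pathway did not move by a common factor. The log2 ratio of each gene to Isg15 within a liver does not depend on how libraries are scaled, and was compared between the 3 Casp8 Tnfr1 dKO and the 8 other livers by an exact two-sided permutation test over all 165 splits. The ratio fell by 5.08 on the log2 scale for Ube2l6, fell by 5.06 for Trim25, fell by 3.89 for Uba7, fell by 3.43 for Herc6 and fell by 1.85 for Usp18. Each had an exact permutation p = 0.00606, the smallest this design allows, and the same value after Benjamini-Hochberg adjustment over the 5 ratios. All 5 ratios share Isg15, which alone separated these groups, so the tests are not separate. A gene that rose much less than Isg15 was bound to reach this p. Groups did not overlap in any of the 5. For Usp18 the log2 ratio lay between -1.67 and -1.41 in Casp8 Tnfr1 dKO livers and between -0.97 and 0.97 in the others.

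Per length, the order of the genes changed with genotype. In WT livers the mean level in CPM per kb of exon was 313 for Ube2l6, 42.6 for Uba7, 20.99 for Trim25, 4.93 for Isg15, 3.58 for Usp18 and 1.89 for Herc6, so the E2 and E1 enzymes and Trim25 were all more abundant than the modifier. The ranges of Isg15 (4.07 to 6.60) and Usp18 (2.96 to 4.31) overlapped in WT livers, and no other neighbours in that order did. In Casp8 Tnfr1 dKO livers the mean level per kb was 490 for Ube2l6, 487 for Isg15, 212 for Uba7, 70.0 for Usp18, 38.4 for Trim25 and 10.5 for Herc6. The ranges of Isg15 (351 to 755) and Ube2l6 (304 to 814) overlapped over most of their length. Without Casp8 Tnfr1 dKO replicate 3 the order of these 2 turned, with means of 354 for Isg15 and 328 for Ube2l6, and the means of the others were 94.8 for Uba7, 54.5 for Usp18, 39.9 for Trim25 and 8.83 for Herc6. Uba7 measured 98.6, 91.0 and 445 CPM per kb in the 3 livers and lay below Isg15 and Ube2l6 in each of them. Herc6 was the lowest of the 6 per kb in every genotype, although its level rose 5.53-fold against WT. In Casp8 Mlkl dKO livers Isg15 measured 50.5, 12.03 and 19.97 CPM per kb, with a mean of 27.5, and Trim25 and Ube2l6 averaged 28.8 and 253. Isg15 was above Trim25 in replicate 1 and below it in replicates 2 and 3, where Trim25 measured 26.6 to 28.6 CPM per kb.

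**Figure D3:**
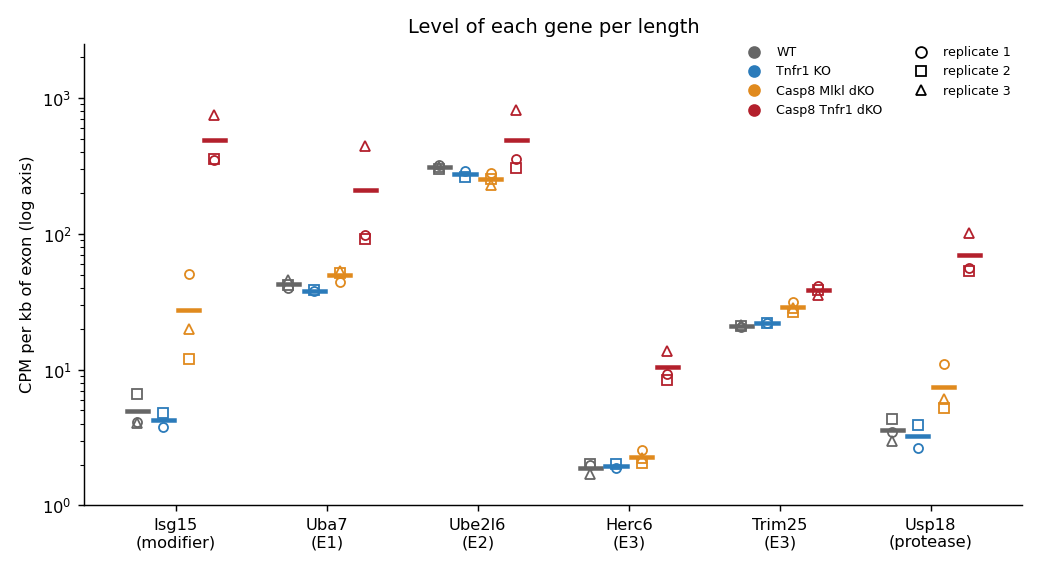
Level of each gene in CPM per kb of exon (log axis), for each liver (open symbols, shape by replicate) with the mean of each genotype as a thick line. Ube2l6 is high in all genotypes, and Isg15 moves from a mean of 4.93 in WT to 487 in Casp8 Tnfr1 dKO livers.

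The relatives of each gene in the ubiquitin system serve as a reference. In Casp8 Tnfr1 dKO against WT, 24.6% of all genes had an unadjusted p under 0.05. Of 10 other ubiquitin-like modifiers tested, which include ubiquitin, NEDD8 and SUMO genes, edgeR called 0 in Casp8 Tnfr1 dKO against WT, with 2 at an unadjusted p under 0.05. Of 8 other E1 enzymes it called 0, also at an unadjusted p under 0.05, with log2 fold changes of -0.07 for Uba1, the ubiquitin E1, and 0.07 for Uba6. Limma-voom with quality weights called 1 E1 enzyme against WT and 2 against Tnfr1 KO. Of 32 other E2 enzymes 0 were called (5 unadjusted), and Ube2l3, the closest relative of Ube2l6, had a value of -0.48 (adjusted p = 0.277). Of the 4 other HERC genes 0 were called (0 unadjusted), with 0.17 for Herc3 and -0.05 for Herc4. Of 45 other ubiquitin-specific proteases 0 were called (9 unadjusted), and the highest value among them was 1.89, below the 4.29 of Usp18.

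The TRIM family was the exception. Of its 48 other members tested, 8 were called higher in Casp8 Tnfr1 dKO against WT (5.1% of all genes) and 1 lower (0.702%). Against Tnfr1 KO 6 were called higher (2.05% of all genes), as were 6 against Casp8 Mlkl dKO (1.54%). Those with the smallest p were Trim12c (log2 fold change 2.58), Trim34a (3.43) and Trim30a (2.87), all larger than the 0.87 of Trim25. These 3 belong to a cluster of related genes. Only uniquely mapped reads were counted, so any reads that fit several of these genes would be missing from the counts.

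**Figure D4:**
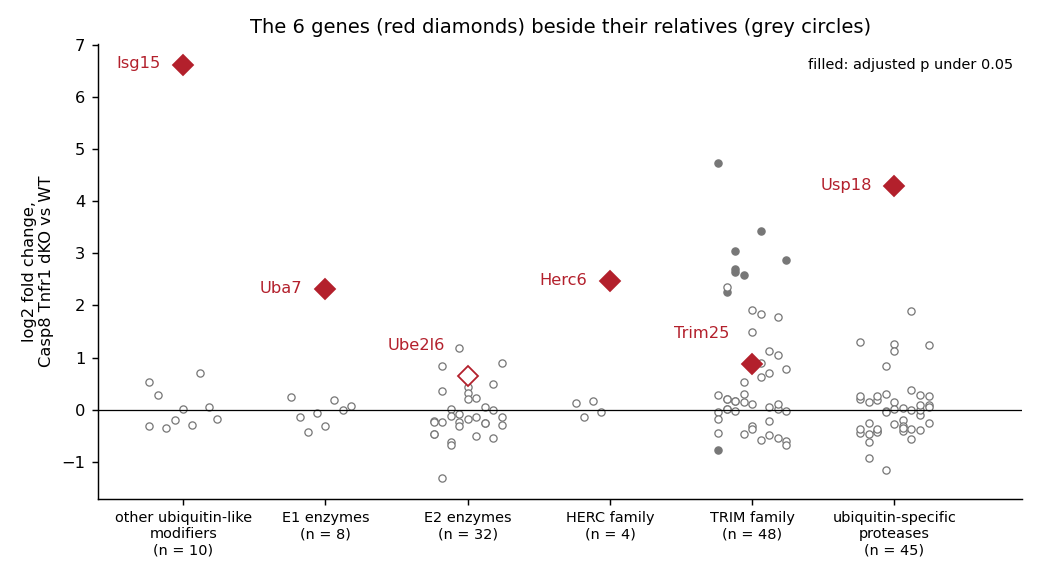
Log2 fold change of Casp8 Tnfr1 dKO against WT for each of the 6 genes (red diamonds) and for the tested genes of its family (grey circles), filled where the adjusted p was under 0.05. Filled grey circles occur in the TRIM family only, and Isg15 (6.63), Uba7 (2.31), Herc6 (2.47) and Usp18 (4.29) lie above every relative drawn beside them.

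The signal that is known to switch the pathway on was read from 14 genes, of which 10 had enough counts to be tested. In Casp8 Tnfr1 dKO livers 5 were called higher than in WT, among them the transcription factors Irf7 (log2 fold change 4.67, adjusted p = 9.08e-05), Stat2 (2.13, adjusted p = 0.00264), Irf1 (1.89, adjusted p = 0.00966) and Irf9 (1.88, adjusted p = 1.02e-04). The background against WT was 5.1%. EdgeR called 0 in the comparisons among the other 3 genotypes. The counts were 5 against Tnfr1 KO (background 2.05%) and 4 against Casp8 Mlkl dKO (1.54%). With only the pair of genotypes fitted they were 2 and 0, and against Tnfr1 KO the count was 3 without either Tnfr1 KO replicate 1 or 2 and with the replicate block. DESeq2 and limma-voom with quality weights each called 3 in Casp8 Mlkl dKO against WT and 3 against Tnfr1 KO. Without Casp8 Tnfr1 dKO replicate 3 edgeR called 1 in Casp8 Mlkl dKO against WT. The totals over all genes also differed between fits. They were 56 and 11 with only the pair fitted, 90 and 45 by DESeq2, 1042 and 517 with quality weights, and 27 without that liver. The median of the list against WT was 1.15, beside 0.00 for all genes. The ligand genes themselves were hardly seen. Over 19 genes for interferons of types I, II and III, no liver had more than 3 counts for any, and Ifnb1 had 3 counts over all 11 libraries. At this depth transcripts made by a few cells would not be detectable.

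Among 14 partners of ISG15 and Usp18, 2 were called higher in Casp8 Tnfr1 dKO than in WT livers (background 5.1%), 2 higher than in Tnfr1 KO (2.05%) and 1 higher than in Casp8 Mlkl dKO (1.54%). Those against WT were Stat2, which recruits Usp18 to the receptor, and Itgb2, the beta chain of LFA-1 (2.19, adjusted p = 0.00627). The other LFA-1 chain, Itgal, had 0.81 and did not pass the test (adjusted p = 0.126), nor did the deubiquitinase Usp2 (1.30, adjusted p = 0.0778). Of 16 proteins reported in the literature to carry ISG15, the genes of 5 were called higher against WT, 5 against Tnfr1 KO and 4 against Casp8 Mlkl dKO. Those against WT included the RNA sensors Ifih1 (2.95, adjusted p = 1.02e-04) and Ddx58 (2.43, adjusted p = 8.69e-04), the kinase Eif2ak2 (1.89, adjusted p = 7.97e-04) and the GTPase Mx1 (3.31, adjusted p = 0.00651). The median was 0.21 for the partners and 0.44 for the substrates. These counts depended on single livers. Without either Tnfr1 KO replicate 1 or 2, 0 partners and 2 substrates were called against Tnfr1 KO. Against Casp8 Mlkl dKO 2 substrates were called without Tnfr1 KO replicate 1 or 2 or Casp8 Mlkl dKO replicate 2 or 3, 0 partners without either of the latter, and 3 partners without Casp8 Tnfr1 dKO replicate 3. With only the pair of genotypes fitted, 0 partners were called in both comparisons, with 3 substrates against Tnfr1 KO and 0 against Casp8 Mlkl dKO, and with the replicate block 0 partners were called in both.

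Across the 11 livers the genes most like Isg15 in log2 CPM, among the 17243 tested, were Trim30a (Pearson r = 0.996), Irf7 (0.995), Rtp4, Ifit1, Oas3, Ifitm3, Trim12c, Usp18, Parp9 and Sp100 (0.990). Usp18 was 8th at 0.992. Herc6 ranked 123rd (0.959), Trim25 145th (0.956), Uba7 1048th (0.840) and Ube2l6 3410th (0.599). Without Casp8 Tnfr1 dKO replicate 3 the r of Trim25 was 0.983 and that of Ube2l6 0.265. These values describe livers that fall into genotypes far apart, and they share libraries and scaling.

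Markers of other cell types moved with some of these values. The summed level of 10 neutrophil markers was 5338, 6592 and 14530 CPM in Casp8 Tnfr1 dKO replicates 1, 2 and 3, against 1154 to 1674 in WT, 1382 to 1416 in Tnfr1 KO and 1342 to 3431 in Casp8 Mlkl dKO livers. Of these markers 4 were called higher against WT, S100a8 (log2 fold change 3.31), S100a9 (3.53), Ltf (3.27) and Ngp (3.27). Camp and Ly6g lay above WT in each Casp8 Tnfr1 dKO liver but were not called. Mpo, Elane, Ctsg and Prtn3 reached both below and above the WT range. Mpo lay between 53.4 and 819 CPM in Casp8 Tnfr1 dKO and 336 and 484 in WT livers, and Elane between 14.4 and 143 and 48.7 and 86.0. The liver with the highest sum in each dKO genotype was also the one with the highest Isg15 and Usp18. These livers, Casp8 Mlkl dKO replicate 1 and Casp8 Tnfr1 dKO replicate 3, were the libraries that stood apart. They also had the highest hepatocyte (201500 and 94050 CPM), endothelial (524 and 666) and plasmacytoid dendritic cell sums (64.2 and 183) of their genotypes. The macrophage, erythroid, muscle and B lineage sums were not highest in both. The sum of 12 macrophage markers was 392 to 470 CPM in Casp8 Tnfr1 dKO livers, which overlapped the 439 to 559 of WT, and was 497 to 529 in Tnfr1 KO and 621 to 1398 in Casp8 Mlkl dKO livers. Of these markers 1 was called higher against WT, Cd68 (log2 fold change 0.90, adjusted p = 0.0293), and 2 lower, Clec4f (-4.23, adjusted p = 0.0437) and Marco (-1.51, adjusted p = 0.0495). The sum of 6 plasmacytoid dendritic cell markers was 130 to 183 CPM in Casp8 Tnfr1 dKO and 46.1 to 48.1 in WT livers, yet the 1 marker called was Bst2, itself an interferon-induced gene, and Siglech, the defining marker, was at 0 to 0.413 CPM. Erythroid markers summed to 18110 CPM in Casp8 Tnfr1 dKO replicate 3, where Uba7 and Ube2l6 were highest, and to 9690 to 14440 CPM in the other 10 livers. These 7 markers did not move together, and 0 were called against WT (log2 fold changes -1.11 to 0.47). Alas2 reached 5730 CPM in Casp8 Tnfr1 dKO livers, against at most 2198 in WT. Klf1 (81.0 to 182 CPM against 305 to 332 in WT), Gata1 (96.5 to 188 against 285 to 296) and Epor (82.6 to 148 against 241 to 262) were lower. Endothelial markers summed to 344 to 666 CPM in Casp8 Tnfr1 dKO and 340 to 384 in WT livers, and B lineage markers to 14.6 to 16.2 and 19.2 to 32.8 CPM. The part of these cell types in the values of the 6 genes was not tested. Leaving out replicate 3, and with it the muscle transcripts and the highest neutrophil sum, kept Isg15, Uba7, Herc6, Trim25 and Usp18 called against WT. That fit does not test the part of neutrophils. The neutrophil sums of the remaining Casp8 Tnfr1 dKO livers, 5338 and 6592 CPM, still lay above the 1154 to 1674 of WT.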

How the data were processed

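RNA of single E15.5 fetal livers was sequenced as single-end 50-base reads. The authors aligned them to GRCm38 (mm10) with GSNAP and deposited, for each liver, raw counts of uniquely mapped reads over the exons of each Ensembl gene, the width of those exons in bases, and RPKM values. The RPKM values that the authors deposited are counts divided by width and by a read total, and were used only to check the counts. The counting tool and its use of strand are not given in the sources used here, and the labels and the methods name different library kits and sequencers, so reads of a gene and of an antisense partner may not have been told apart. GENCODE M21 gave names and positions for 52403 of the 52636 genes.

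Genes were kept by filterByExpr (minimum count 10), which left 17243. TMM scaled the libraries (factor 0.758 in Casp8 Tnfr1 dKO replicate 3, 0.812 in Casp8 Mlkl dKO replicate 1, 1.01 to 1.09 elsewhere), and the 4 genotypes were fitted together by edgeR 4.0.16 (glmQLFit, glmQLFTest; R 4.3.3) with Benjamini-Hochberg adjustment over all genes tested. Levels per kb divide CPM by the deposited width. Ratios to Isg15 used log2 CPM with a prior count of 2. The alternatives were DESeq2 1.42.0, its size factors in edgeR, limma-voom (limma 3.58.1) with and without a quality weight per library, other filters, a prior count of 0.5, the genotypes compared alone, the replicate number as a block, and each liver left out. The scripts were tested on simulated counts.

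The members and lists were chosen with earlier results of these data known. From each list the text names, at most, the 5 genes with the smallest p in Casp8 Tnfr1 dKO against WT (3 for the E2, protease and TRIM families), the closest relatives Uba1, Uba6, Ube2l3, Herc3 and Herc4, and the 10 genes most correlated with Isg15. Some genes that these rules select are not reported here. No 2 libraries agreed within sampling noise (chi-square of at least 6.03 per degree of freedom). Nothing in the labels says whether livers of a genotype came from separate litters, so p values measure the spread between these livers. Reads carry no molecular identifiers, so count limits cover counting error only.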

Additional observations from a re-analysis of the deposited data

How the results depend on the processing

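The number of the 6 genes called in Casp8 Tnfr1 dKO livers against WT was 5, and 4 to 5 under all 20 alternatives, and in Tnfr1 KO against WT it was 0 throughout. Against Tnfr1 KO it was 4, with 6 with quality weights, 6 without both Casp8 Tnfr1 dKO replicate 3 and Casp8 Mlkl dKO replicate 1, an alternative added after seeing the data, 1 when only the genotypes compared were fitted and 1 to 5 when single livers were left out. Against Casp8 Mlkl dKO it was 3, with 5 by DESeq2, 6 with quality weights, 0 when only the genotypes compared were fitted, 3 to 5 when single livers were left out and 6 without both of these livers. In Casp8 Mlkl dKO against WT it was 0, with 2 by DESeq2, 4 with quality weights and 5 without both of these livers. In Casp8 Mlkl dKO against Tnfr1 KO it was 0, with 1, 4 and 4 in the same order. Fits of fewer livers have fewer degrees of freedom, and the quality weights were 0.0383 and 0.114 for the 2 livers. For the other differences the cause was not tested. The 5 ratios to Isg15 kept their direction in the 12 alternatives run for them, with an exact permutation p of at most 0.0222.

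Single livers decided some calls. Uba7 against WT lost its call without any 1 of the WT or Tnfr1 KO livers, or without Casp8 Mlkl dKO replicate 2 or 3 (highest adjusted p = 0.136). Isg15 against Tnfr1 KO lost it without Tnfr1 KO replicate 1 (adjusted p = 0.0734) or 2 (0.054), as did Trim25 (0.327 and 0.339), and Usp18 lost it without replicate 1 (0.0509). The sign reversed only in Tnfr1 KO against WT, for values near 0. With single livers left out, Isg15 lay between -0.37 and 0.066 there, Herc6 between -0.021 and 0.096 and Usp18 between -0.45 and 0.12. With the replicate block Uba7 was at 0.11. The count over all genes called in Casp8 Tnfr1 dKO against WT was 1000, and 281 to 5314 over the alternatives. Against Tnfr1 KO it was 374 (30 to 4325), and against Casp8 Mlkl dKO 285 (11 to 3067). In Casp8 Mlkl dKO against WT it was 1 (0 to 1086) and against Tnfr1 KO 1 (0 to 592), and in Tnfr1 KO against WT 0 (0 to 271).

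Whether the replicate numbers pair the livers is not given by the labels, and the correlations between livers do not settle it. Same-numbered livers of different genotypes correlated between -0.30 and 0.27 in their deviations from the genotype mean, over 0.1 in 5 of 15 pairs, and 6 of 11 livers correlated best with one of their own number. With the replicate number as a block, 4 genes were called in Casp8 Tnfr1 dKO against WT (Uba7 1.99, adjusted p = 0.0614), 3 against Tnfr1 KO (Trim25 0.82, adjusted p = 0.0533) and 3 against Casp8 Mlkl dKO.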
